A study of Mus musculus with 6 samples.

Results

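The 10 genes described here encode the transcription factor NRF2 (Nfe2l2), its classical target enzymes and the cytosolic thioredoxin system: Nfe2l2, Hmox1, Nqo1, Gclc, Gclm, Srxn1, Prdx1, Txn1, Txnrd1 and Slc7a11. They were chosen by name, and all 10 had exactly 1 row among the 23494 genes of the deposited expression table. Values came from 6 libraries labelled heart, from wild type female C57BL/6 mice that all carried subcutaneous B16F10 tumours, a transplanted mouse melanoma line. In the vehicle group (n = 3) the mice received phosphate-buffered saline, and in the rMANF group (n = 3) recombinant mesencephalic astrocyte-derived neurotrophic factor at 2 µg/kg, injected into the peritoneum every day from a mean tumour volume of about 60 mm3. Per the labels, 8 mice per group were randomised, and the 3 libraries of a group are biological replicates. The replicates were read as separate mice, and the labels state neither the ages nor how 3 of 8 mice were chosen. The table's column names for the vehicle libraries begin with IgG, although the labels give the treatment as saline.

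NRF2 is the main transcriptional regulator of the response to oxidants and electrophiles. In resting cells KEAP1 holds it in the cytoplasm and presents it for degradation, and when KEAP1 is modified NRF2 enters the nucleus, pairs with a small MAF protein and binds antioxidant response elements. Its targets make glutathione, reduce thioredoxin and peroxiredoxins, break down haem and detoxify quinones. In the heart these enzymes are known for protection against oxidative injury, and in macrophages Hmox1 is a well-known induced gene.

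Levels are in TPM (a gene's share of the transcripts in its library, corrected for length), so genes can be compared with each other, but the sequencing depth is unknown. The libraries went against their tissue label. Of 12 markers of heart muscle cells, 9 had rows (Myh6, Ryr2 and Nkx2-5 had none), and the 9 summed to between 7.47 and 31.6 TPM per library. Among them the atrial peptide gene Nppa was listed at 0 TPM in 3 of the 6 libraries and Myl2, the ventricular myosin light chain, in 4. Other contents differed between groups: 18 macrophage markers summed to 4427 to 5243 TPM under vehicle and 2523 to 3538 TPM under rMANF, 14 skeletal muscle markers to 28.7 to 1264 and 7.43 to 21.1 TPM, and 8 endothelial markers to 46.7 to 76.9 and 84.3 to 104.7 TPM. For each of these 3 lists the groups did not overlap (exact two-sided permutation test, p = 0.1, the smallest that 3 against 3 libraries can give; adjusted over 7 marker lists 0.233). Fibroblast markers (304 to 449 and 228 to 314 TPM), erythroid markers (196 to 682 and 209 to 302 TPM) and melanocyte markers (7.96 to 12.6 and 7.44 to 10.2 TPM) overlapped by their sums. Only 6 of 8 erythroid and 3 of 7 melanocyte markers had rows, so these 2 sums cover part of their lists. Singly, 5 of the 8 fibroblast markers lay lower without overlap (9.02% of tested genes), and their median log2 difference was −0.73. The markers of highest level were Tnnt2 and Myl2 for heart muscle, Lyz2 and Ctss for macrophages, Acta1 and Mylpf for skeletal muscle, Pecam1 and Cldn5 for endothelium, Col3a1 and Postn for fibroblasts, Hbb-bs and Hba-a1 for erythroid cells, and Mitf and Pmel for melanocytes. Manf itself, which checks nothing about an injected protein, measured 93.1 ± 12.3 TPM under vehicle and 77.7 ± 2.52 TPM under rMANF (SD, n = 3 each). The part of these differences in the results below was not tested unless a value is given.

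The 10 genes did not all differ in 1 direction. Hmox1 and Prdx1 lay lower in all 3 rMANF libraries than in all 3 vehicle libraries, Txnrd1 and Srxn1 lay higher in all 3, and the remaining 6 overlapped between groups. Differences were taken on log2(TPM + 1), rMANF minus vehicle, with limma's moderated linear model over the 12865 genes whose mean over the libraries reached 1 TPM. Of the 10, 9 passed that filter and Slc7a11 did not. At a Benjamini-Hochberg adjusted p of 0.05 limma called 0 of the 9, against 0.0% of all tested genes. At an unadjusted p of 0.05, 3 of the 9 passed (Prdx1, Hmox1 and Txnrd1), against 20.5% of all tested genes. At an adjusted p of 0.10 limma called 1 of the 9, Prdx1, against 2.73% of tested genes, or 0.793% for genes that lay lower. Non-overlap between the groups held for 4 of the 9 members and for 28.0% of tested genes. Non-overlap downward held for 2 of 9 members and for 9.02% of tested genes, and upward for 2 of 9 members and 18.9% of tested genes. The median log2 difference over the 9 was −0.04, beside 0.04 over all tested genes. Under median-of-ratios scaling or quantile normalization the split was 4 lower and 1 higher, since Nfe2l2 and Gclm no longer overlapped and Srxn1 did. Of all tested genes, 1697 and 1585 lay lower without overlap under these 2 settings, and 2137 and 2264 higher.

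**Figure D1:**
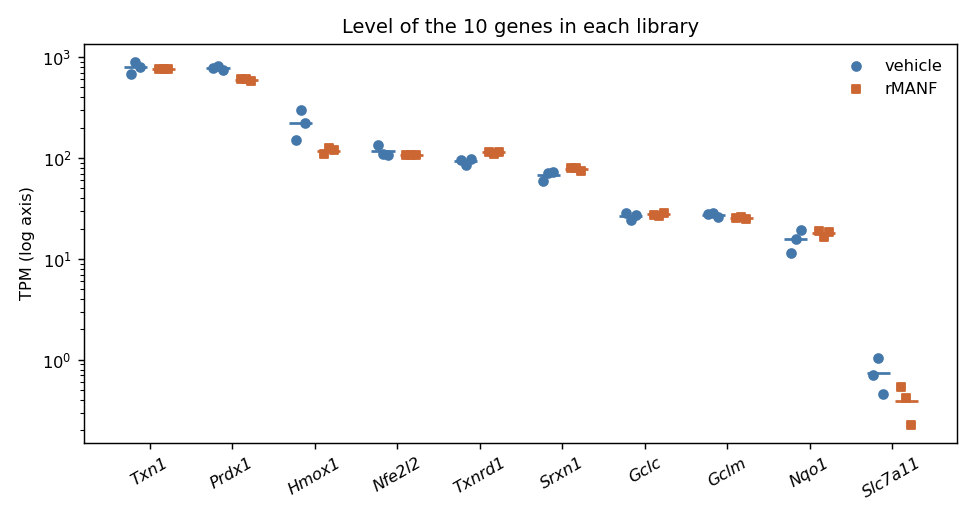
Level of each of the 10 genes in each library, in TPM on a log axis, with genes ordered by mean level; circles are vehicle libraries, squares rMANF libraries and horizontal lines group means. Txn1 and Prdx1 sit highest, at 573 to 890.2 TPM, and Slc7a11 lies near or below 1 TPM in every library; the groups separate for Prdx1, Hmox1, Txnrd1 and Srxn1.

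By mean level over the 6 libraries the order was Txn1 (775 TPM), Prdx1 (685), Hmox1 (171), Nfe2l2 (112), Txnrd1 (103), Srxn1 (72.9), Gclc (27.1), Gclm (26.3), Nqo1 (16.8) and Slc7a11 (0.566 TPM). The ranges of Txn1 and Prdx1 overlapped, as did those of Hmox1 and Nfe2l2, Nfe2l2 and Txnrd1, and Gclc and Gclm. Each other neighbouring pair in this order was separated in all 6 libraries. In every library Txn1 and Prdx1 stood above the genes that make glutathione (Gclc and Gclm) and reduce quinones (Nqo1).

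Of the 4 members without overlap, 2 lay lower and 2 higher, and the sequence upstream of a start site is shown for 3 of them, Prdx1, Srxn1 and Txnrd1; Hmox1, the other lower member, had no window, and neither did Gclc. RefSeq windows (GRCm38.p6, 250 bases before a start) were matched for 8 of the 10 genes, with 10 windows in all. They were searched on both strands for 2 spellings of the antioxidant response element, TGACNNNGC and TGANTCAGC, which overlap where the letters meet both. One or the other was found in 5 of the 10 windows, in Nfe2l2, Gclm, Srxn1, Prdx1 and Txnrd1, against 10.7% of all 32851 windows of that length (10.2% for TGACNNNGC and 1.02% for TGANTCAGC). Capitals mark the match in the following stretches, which leave out bases that GENCODE places in an exon of the gene.
Prdx1, chr4:116685349-116685543, plus strand: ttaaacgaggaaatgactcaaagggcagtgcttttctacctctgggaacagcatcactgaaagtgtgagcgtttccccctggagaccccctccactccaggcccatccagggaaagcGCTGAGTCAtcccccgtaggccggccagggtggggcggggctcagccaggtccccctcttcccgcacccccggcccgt
Srxn1, chr2:152105274-152105515, plus strand: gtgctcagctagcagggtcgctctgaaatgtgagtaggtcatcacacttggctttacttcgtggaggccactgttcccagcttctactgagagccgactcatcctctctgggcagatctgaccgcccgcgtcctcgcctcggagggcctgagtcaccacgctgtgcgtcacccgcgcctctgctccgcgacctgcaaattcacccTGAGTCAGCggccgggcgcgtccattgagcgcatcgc
Txnrd1, chr10:82858956-82859178, plus strand: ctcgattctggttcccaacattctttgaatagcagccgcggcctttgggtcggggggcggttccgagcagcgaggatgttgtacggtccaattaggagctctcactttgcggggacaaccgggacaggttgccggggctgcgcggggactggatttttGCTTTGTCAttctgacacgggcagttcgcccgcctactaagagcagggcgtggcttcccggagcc
Distances are counted to the RefSeq start, and each printed stretch ends before it, where a GENCODE exon begins. The match before Prdx1 begins 133 bases before the RefSeq start, meets both spellings and lies on the opposite strand. That before Srxn1 begins 45 bases before the start and meets only TGANTCAGC, and that before Txnrd1, at an internal start of the gene, begins 92 bases before it and meets only TGACNNNGC on the opposite strand. A match describes letters and is not a measured binding site.

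Peroxiredoxin 1, an abundant cytosolic enzyme that reduces hydrogen peroxide through a cysteine that thioredoxin restores, had the smallest p of the 9 tested members. Prdx1 (ENSMUSG00000028691.12, chromosome 4, 116685544 to 116700822, GRCm38) measured 773, 807 and 739 TPM in vehicle replicates 1 to 3 and 611, 609.7 and 573 TPM in rMANF replicates 1 to 3. Every rMANF library lay below every vehicle library, and the gaps within a group were smaller than the gap between groups. The mean was 22.6% lower, a log2 difference of −0.37 ± 0.07 (SE; limma, Benjamini-Hochberg adjusted p = 0.0893). The difference kept its sign in all 20 alternatives tried (−0.41 to −0.29; adjusted p 0.0325 to 0.364). Prdx1 transcripts had the lowest GC content of the 10 genes (43.7%), and the difference was −0.29 after GC trends were removed from each library.

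The other peroxiredoxins showed smaller differences. Prdx2 (274 ± 3.19 TPM under vehicle and 255 ± 13.7 TPM under rMANF) and the mitochondrial and peroxisomal Prdx5 (135 ± 22.2 and 119.6 ± 10.9 TPM) differed by −0.10 ± 0.07 and −0.17 ± 0.13 on the log2 scale. Like Prdx1, Prdx2 lay lower without overlap (9.02% of all tested genes did). Its separation was narrow, with vehicle replicate 3 at 271.7 TPM and rMANF replicate 1 at 269.8 TPM. Prdx3, the mitochondrial member, Prdx4, the member of the endoplasmic reticulum, and Prdx6 differed by 0.02 ± 0.10, 0.03 ± 0.09 and 0.01 ± 0.08, and the signs of these 3 turned under median-of-ratios scaling. A ratio within a library does not depend on scaling. Prdx1 stood at 94.1, 86.8 and 85.3 per 100 TPM of Prdx2 to Prdx6 together in the vehicle libraries and at 70.2, 70.9 and 71.3 in the rMANF libraries. The groups did not overlap (exact two-sided permutation p = 0.1, the smallest possible, and adjusted p = 0.2 over 8 ratios, which were chosen after the values had been seen). Prdx1 transcripts had a lower GC content (43.7%) than those of Prdx2 to Prdx6 (45.5% to 56.0%). The part of GC content in this ratio was not tested.

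Srxn1 encodes sulfiredoxin, which repairs peroxiredoxins that peroxide has over-oxidised. Srxn1 (ENSMUSG00000032802.8, chromosome 2, 152105516 to 152111376) measured 59.2, 71.8 and 73.4 TPM under vehicle and 79.1, 78.7 and 75.0 TPM under rMANF. The groups did not overlap, but the highest vehicle and the lowest rMANF library were close. The log2 difference was 0.19 ± 0.10 (SE; limma, adjusted p = 0.326). Srxn1 transcripts had the highest GC content of the 10 genes (59.8%), and the difference was −0.018 after GC trend removal. Relative to its substrate gene, Srxn1 stood at 7.66, 8.89 and 9.93 per 100 TPM of Prdx1 under vehicle and at 12.9, 12.9 and 13.1 with rMANF, with no overlap (exact permutation p = 0.1; adjusted p = 0.2 over 8 ratios). Srxn1 lay higher and Prdx1 lower, each without overlap, so the groups could not overlap in this ratio. Its exact p was therefore fixed by the single genes and tests nothing further. It was counted among the 8 ratios, so the adjusted p of the other ratios depends in part on it. Srxn1 and Prdx1 are the 2 members with the highest and the lowest GC content. The part of GC content in the ratio was not tested.

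Thioredoxin, which restores peroxiredoxins and ribonucleotide reductase, had the highest mean transcript level of the 10 genes, although Prdx1 exceeded it in vehicle replicate 1. Txn1 (ENSMUSG00000028367.5, chromosome 4, 57943373 to 57956411) measured 686, 890.2 and 787 TPM under vehicle and 765, 758 and 766 TPM under rMANF. The rMANF libraries lay inside the vehicle range, and the log2 difference was −0.04 ± 0.10 (SE; limma, adjusted p = 0.873). Prdx1 stood at 112.7, 90.6 and 93.9 per 100 TPM of Txn1 under vehicle and at 79.9, 80.4 and 74.8 with rMANF. In this ratio, also among the 8, the groups did not overlap (exact permutation p = 0.1, adjusted p = 0.2). The annotation holds a Txn1 pseudogene, Txn-ps1, whose reads the authors' quantification could have shared with it.

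Thioredoxin reductase 1, the selenoprotein that recharges thioredoxin with electrons from NADPH, lay higher with rMANF. Txnrd1 (ENSMUSG00000020250.10, chromosome 10, 82833951 to 82897712) measured 94.5, 84.7 and 97.8 TPM under vehicle and 115.6, 109.4 and 115.5 TPM under rMANF. All 3 rMANF libraries lay above all 3 vehicle libraries, and the mean was 22.9% higher. The log2 difference was 0.30 ± 0.08 (SE; limma, adjusted p = 0.128), it was positive in all 20 alternatives (0.21 to 0.34), and its adjusted p ran from 0.0636 to 0.423. It was 0.28 with GC trends removed. The span of Txnrd1 overlaps Eid3 on the same strand and 2 further annotated genes on the other. The library kit does not mark strand, and whether exons overlap was not checked, so reads could have been shared. Per 100 TPM of Txn1, Txnrd1 stood at 13.8, 9.51 and 12.4 under vehicle and at 15.1, 14.4 and 15.1 with rMANF, again without overlap (exact permutation p = 0.1; adjusted p = 0.2 over 8 ratios).

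**Figure D2:**
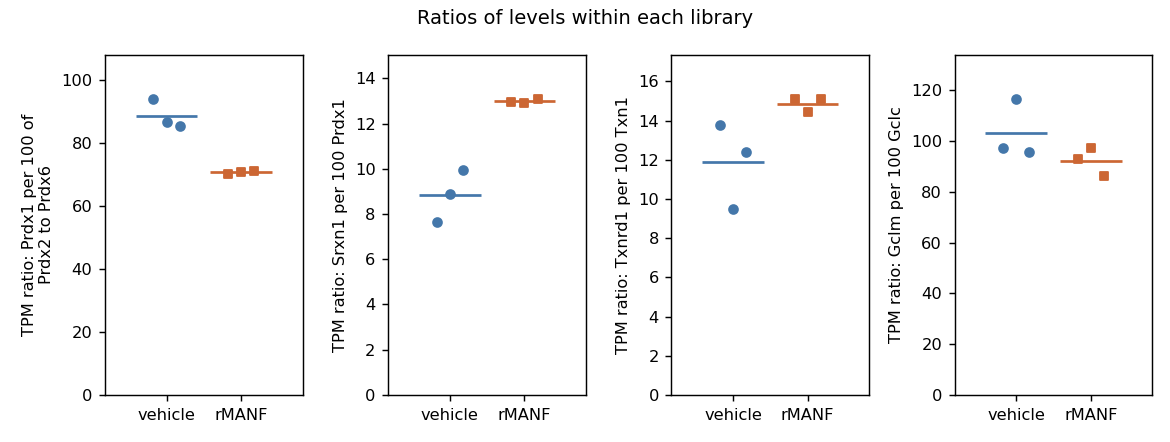
Ratios of TPM values within each library, so that scaling between libraries cancels; circles are vehicle libraries, squares rMANF libraries and lines group means, and each vertical axis starts at 0. Prdx1 relative to its 5 relatives is lower in each rMANF library (70.2 to 71.3 against 85.3 to 94.1), Srxn1 per Prdx1 and Txnrd1 per Txn1 are higher, and Gclm per Gclc overlaps.

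Other genes of the thioredoxin and peroxiredoxin system numbered 23, all with rows and 22 tested. Limma called 0 of the 22 at an adjusted p of 0.05, and at an unadjusted p of 0.05 2 lay higher and 1 lower (13.9% and 6.63% of all tested genes). Groups did not overlap for 3 upward and 3 downward (18.9% and 9.02% of all tested genes), and the median log2 difference was −0.04. After GC trend removal the counts were 1 upward and 0 downward (2256 and 1364 of all 12865 tested genes). Without vehicle replicate 1 they were 4 upward and 5 downward (4128 and 1660 of all tested genes). Txnip, the inhibitor that binds reduced thioredoxin, measured 49.2 ± 4.42 and 62.4 ± 7.15 TPM (0.33 ± 0.11; limma, adjusted p = 0.160). Sesn2, a stress-induced sestrin, measured 13.9 ± 0.687 and 18.7 ± 3.79 TPM (0.38 ± 0.15), with the groups overlapping. Glrx, cytosolic glutaredoxin, measured 60.4 ± 4.47 and 52.3 ± 1.53 TPM (−0.20 ± 0.09), and the thioredoxin-like Txndc17 284 ± 34.0 and 256 ± 4.99 TPM. The signs for Txnip, Sesn2, Glrx and Txndc17 held in all 20 alternatives.

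Haem oxygenase 1, which opens the haem ring and yields biliverdin, iron and carbon monoxide, had the largest difference in size among the 9 tested members. Hmox1 (ENSMUSG00000005413.8, chromosome 8, 75093621 to 75100589) measured 151, 295 and 223 TPM in vehicle replicates 1 to 3 and 109.8, 125.6 and 118.9 TPM in rMANF replicates 1 to 3. The vehicle libraries were widely spread, vehicle replicate 2 was highest, and the groups did not overlap. The mean was 47.1% lower, with a log2 difference of −0.86 ± 0.21 (SE; limma, adjusted p = 0.1097). The difference was −1.11 without vehicle replicate 1 (adjusted p = 0.0518) and −0.64 without vehicle replicate 2 (adjusted p = 0.223). Over all 20 alternatives the adjusted p ran from 0.0236 to 0.293.

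Macrophage markers lay lower in the same libraries: 11 of the 18 did not overlap downward and 0 upward (9.02% and 18.9% of all tested genes), their median log2 difference was −0.59, and Lyz2 (lysozyme, 972 ± 21.9 and 562 ± 152 TPM) and Ctss (cathepsin S) led by level. Per 1000 TPM of the 18 markers, Hmox1 stood at 34.2, 56.3 and 45.5 under vehicle and at 31.0, 37.4 and 47.1 with rMANF, and the groups overlapped (exact permutation p = 0.5). Per 100 TPM of Lyz2 alone it stood at 16.0, 29.7 and 22.9 and at 15.0, 23.998 and 27.5 (exact permutation p = 0.9). Fibroblast markers also lay lower (5 of 8 without overlap), and their part in the Hmox1 value was not tested. In such bulk libraries fewer cells of a type and less RNA per cell cannot be told apart. Vehicle replicate 2, the highest for Hmox1, also held the most skeletal muscle RNA (1264 TPM summed), whose part in the Hmox1 value was not tested.

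**Figure D3:**
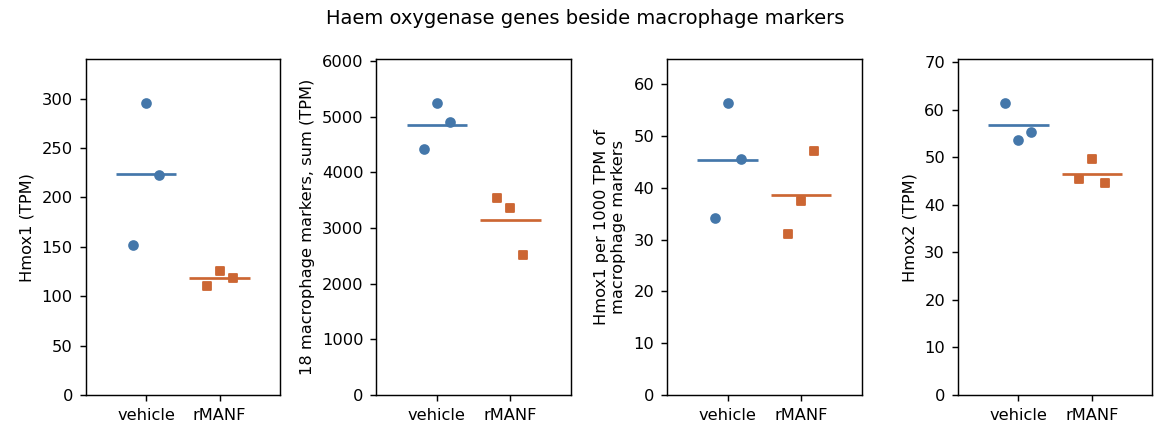
Hmox1, the summed level of 18 macrophage markers, Hmox1 per 1000 TPM of those markers, and Hmox2 in each library; circles are vehicle libraries, squares rMANF libraries, lines group means, and vertical axes start at 0. Hmox1, the marker sum and Hmox2 are lower in every rMANF library, while the groups overlap for Hmox1 relative to the markers.

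Of 14 other haem and iron genes, all tested, limma called 0 at an adjusted p of 0.05, and at an unadjusted p of 0.05 1 lay lower and 0 higher (6.63% and 13.9% of all tested genes). Groups did not overlap for 2 of the 14, both lower (9.02% of all tested genes lay lower without overlap). Without vehicle replicate 3, 2 others lay higher, beside 3231 of all 12865 tested genes. The 2 lower genes were Hmox2, the constitutive haem oxygenase (56.8 ± 4.05 and 46.5 ± 2.75 TPM; −0.28 ± 0.09, limma adjusted p = 0.152), and Blvra, biliverdin reductase A (56.6 ± 3.52 and 50.0 ± 1.34 TPM; −0.17 ± 0.08). The ferritin subunit genes, which store the released iron and belong to families with processed pseudogenes, were the most abundant, with Fth1 at 5311 ± 242 and 4677 ± 610 TPM and Ftl1 at 3325 ± 706 and 3114 ± 307 TPM. Fth1 differed by −0.19 ± 0.11 and Ftl1 by −0.08 ± 0.16 (0.01 under quantile normalization), and the groups overlapped for both. Hmox1 per 100 TPM of Hmox2 stood at 247, 551 and 402 under vehicle and at 241.5, 253 and 267 with rMANF, which overlapped.

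Neither glutathione synthesis gene among the members separated the groups. Gclc, the catalytic subunit of glutamate-cysteine ligase (ENSMUSG00000032350.9, chromosome 9, 77754535 to 77794485), measured 28.6, 24.4 and 26.9 TPM under vehicle and 27.1, 26.9 and 28.6 TPM under rMANF (0.05 ± 0.09, SE; limma, adjusted p = 0.804). Its modifier subunit gene Gclm (ENSMUSG00000028124.15, chromosome 3, 122245557 to 122270732) measured 27.8, 28.4 and 25.8 TPM and 25.2, 26.2 and 24.7 TPM (−0.10 ± 0.09; limma, adjusted p = 0.539). For both the group ranges overlapped. The 2 subunit genes were expressed in nearly equal amounts, with Gclm at 97.3, 117 and 95.7 per 100 TPM of Gclc under vehicle and 93.0, 97.3 and 86.2 under rMANF (exact permutation p = 0.3). The span of Gclm overlaps a non-coding gene and a pseudogene. Whether their exons overlap was not checked, so reads could have been shared.

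Slc7a11 encodes xCT, the transporter that imports cystine for glutathione synthesis. Its level was the lowest of the 10 genes. Slc7a11 (ENSMUSG00000027737.10, chromosome 3, 49892526 to 50443614) measured 0.707, 1.05 and 0.456 TPM under vehicle and 0.538, 0.416 and 0.228 TPM under rMANF. The groups overlapped, and the gene was below the filter and not tested. Its span overlaps 5 annotated genes, among them an antisense gene and 3 processed pseudogenes. Whether their exons overlap was not checked, so reads could have been shared. Its partner chain Slc3a2, which also serves other amino acid transporters, stood at 135 ± 9.69 and 163 ± 7.52 TPM (0.26 ± 0.08; limma, adjusted p = 0.152), higher in all 3 rMANF libraries.

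Of 19 genes listed for the wider glutathione system 18 had rows and 16 were tested. Limma called 0 at an adjusted p of 0.05, and at an unadjusted p of 0.05 4 lay higher and 3 lower (13.9% and 6.63% of all tested genes). Groups did not overlap for 5 upward and 3 downward (18.9% and 9.02% of all tested genes), with a median log2 difference near 0 (−0.0031). Under median-of-ratios scaling the counts were 3 upward and 4 downward, beside 2137 and 1697 of all 12865 or so tested genes. Without vehicle replicate 1, vehicle replicate 3 or rMANF replicate 1, 5 lay lower, beside 1660, 1760 and 1585 of all tested genes. Besides Slc3a2, the glutamine carrier Slc1a5 lay higher (77.8 ± 8.39 and 95.8 ± 4.84 TPM; 0.30 ± 0.10, limma adjusted p = 0.159). Ggct, of glutathione breakdown, lay lower (10.3 ± 1.03 and 7.85 ± 0.449 TPM; −0.35 ± 0.11, limma adjusted p = 0.156). The peroxidase genes of highest level were Gpx4, which reduces lipid peroxides, at 753 ± 73.3 and 765 ± 63.9 TPM and Gpx1 at 630 ± 71.8 and 551 ± 46.6 TPM, and both overlapped. The other 3 peroxidase genes on the list were lower in level. Of these Gpx3, the secreted peroxidase, lay lower without overlap at 15.6 ± 6.20 and 8.97 ± 2.21 TPM (−0.70 ± 0.26, limma adjusted p = 0.192), while Gpx7 and Gpx8 overlapped. The separation of Gpx3 was narrow, with vehicle replicate 3 at 11.42 TPM and rMANF replicate 2 at 11.39 TPM. Of the 4 genes that dispose of superoxide and peroxide, Sod1 measured 784 ± 54.7 and 894 ± 50.0 TPM and did not overlap except under median-of-ratios scaling and GC trend removal (0.19 ± 0.09, limma adjusted p = 0.256). Sod2 (22.0 ± 1.67 and 20.03 ± 0.675 TPM) and catalase (Cat, 24.9 ± 1.89 and 22.9 ± 1.32 TPM) overlapped. Limma called 0 of these 4 at an adjusted p of 0.05 and 0 at an unadjusted p of 0.05 (20.5% of all tested genes).

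The gene of the regulator itself and that of the quinone reductase overlapped between groups. Nfe2l2 (ENSMUSG00000015839.6, chromosome 2, 75675513 to 75704641) measured 133, 108 and 108 TPM under vehicle and 106, 108 and 106 TPM under rMANF (−0.11 ± 0.10, SE; limma, adjusted p = 0.561). Vehicle replicate 1 alone stood above the rest, and without it the difference was −0.01. NRF2 is controlled mainly at the protein level, which these data do not measure. Nqo1, the quinone reductase often used as a readout of NRF2 (ENSMUSG00000003849.8, chromosome 8, 107388225 to 107403206), measured 11.6, 15.8 and 19.4 TPM under vehicle and 19.0, 16.5 and 18.3 TPM under rMANF. The rMANF values lay within the vehicle range, and the log2 difference of 0.21 ± 0.17 (limma, adjusted p = 0.529) was 0.03 without vehicle replicate 1.

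**Figure D4:**
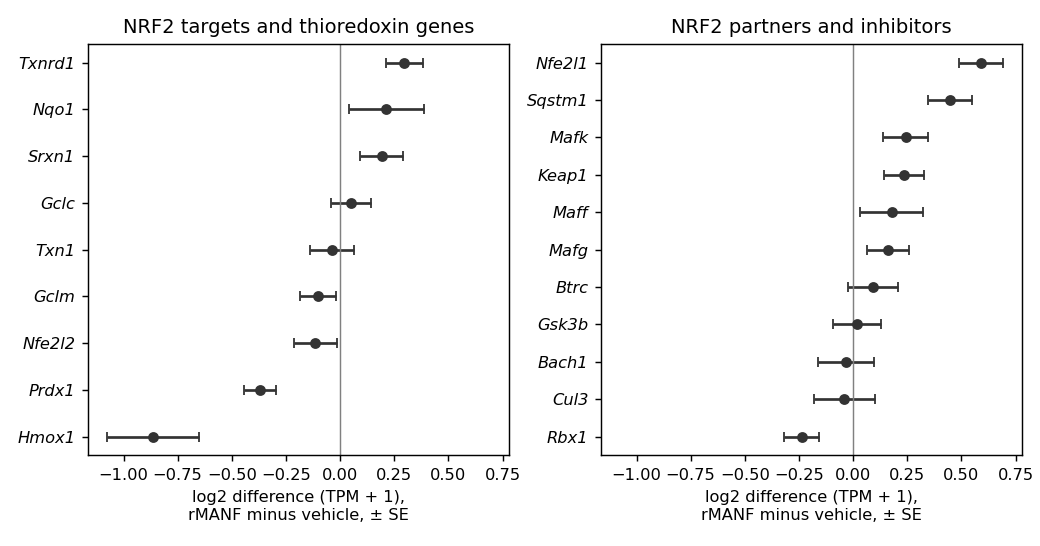
Log2 differences, rMANF minus vehicle, on log2(TPM + 1) for the 9 tested members and for 11 partners and inhibitors of NRF2; points are estimates and bars 1 standard error from limma (n = 3 per group). Hmox1 and Prdx1 have the lowest values in the left panel, and Nfe2l1 and Sqstm1 the highest in the right panel.

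Among 11 partners and inhibitors of NRF2, all tested, the median log2 difference was 0.16, and groups did not overlap for 4 upward and 1 downward (18.9% and 9.02% of all tested genes). After GC trend removal the median was 0.07 and the counts were 2 upward and 1 downward (2256 and 1364 of all 12865 tested genes). Without vehicle replicate 1 or without rMANF replicate 1, 6 lay higher, beside 4128 and 3091 of all tested genes. Limma called 0 at an adjusted p of 0.05, 2 at an adjusted p of 0.10, both higher (1.94% of tested genes), and 5 at an unadjusted p of 0.05, of which 4 lay higher (13.9% of tested genes). The 2 were Nfe2l1 and Sqstm1. Nfe2l1, which encodes the related factor NRF1 that drives proteasome genes, measured 55.8, 45.9 and 44.1 TPM under vehicle and 72.2, 73.3 and 74.3 TPM under rMANF, a log2 difference of 0.59 ± 0.10 (SE; limma, adjusted p = 0.0893). The rMANF libraries were close together and all above the vehicle libraries. Sqstm1, whose product p62 is an NRF2 target and draws KEAP1 into autophagy, measured 380, 320 and 367 TPM under vehicle and 434, 504 and 517 TPM under rMANF (0.45 ± 0.10; limma, adjusted p = 0.0997). Both were positive in all 20 alternatives, from 0.51 to 0.72 for Nfe2l1 and from 0.37 to 0.52 for Sqstm1.

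Keap1, the sensor and adaptor that sends NRF2 to degradation, measured 21.1, 24.2 and 24.5 TPM under vehicle and 27.4, 28.6 and 26.6 TPM under rMANF (0.23 ± 0.09; limma, adjusted p = 0.215). The groups did not overlap, but Keap1 transcripts are GC-rich (58.5%) and the difference was 0.06 with GC trends removed. Rbx1, a subunit of the ubiquitin ligase that KEAP1 serves, lay lower (127 ± 7.76 and 107 ± 4.52 TPM; −0.24 ± 0.08, limma adjusted p = 0.168). Bach1, the repressor that competes with NRF2 for its sites and is released by haem, overlapped at 20.4 ± 2.94 and 19.9 ± 1.99 TPM (−0.03 ± 0.13; limma adjusted p = 0.915), and its sign turned in 5 of the 20 alternatives.

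A further 31 textbook targets of NRF2 had rows, and 29 were tested. Limma called 0 at an adjusted p of 0.05, and 2 lay higher and 0 lower at an unadjusted p of 0.05 (13.9% and 6.63% of all tested genes). Groups did not overlap for 5 upward and 0 downward (18.9% and 9.02% of all tested genes), with a median log2 difference of 0.08. These non-overlap counts moved with single libraries, to 9 upward and 3 downward without vehicle replicate 1, 7 and 2 without vehicle replicate 3, 6 and 1 without vehicle replicate 2, 7 and 1 without rMANF replicate 1, 5 and 5 without rMANF replicate 2, and 9 and 0 without rMANF replicate 3. In the same order, the counts over all 12865 tested genes were 4128 and 1660, 3231 and 1760, 2644 and 1803, 3091 and 1585, 2675 and 1918, and 3106 and 1347. With all 6 libraries they were 2436 and 1160. After removal of GC trends the median of the targets was near 0 (0.0021), and non-overlap held for 7 upward and 1 downward (2256 and 1364 of all tested genes). Under median-of-ratios scaling it held for 4 upward and 2 downward (2137 and 1697 of all tested genes). Some genes, such as Fth1 and Ftl1, stand on 2 of the lists. Pgd, of the pentose phosphate pathway that supplies NADPH, lay higher (121 ± 10.2 and 144 ± 1.45 TPM; 0.25 ± 0.08, limma adjusted p = 0.166), as did the conjugate exporter Abcc1 (22.8 ± 0.423 and 27.2 ± 2.92 TPM; 0.24 ± 0.10, limma adjusted p = 0.230). Ephx1, microsomal epoxide hydrolase, measured 35.1 ± 5.29 and 42.5 ± 4.19 TPM and overlapped. The lists were set with results of these data known, so their counts describe and do not test a direction of NRF2 activity.

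**Figure D5:**
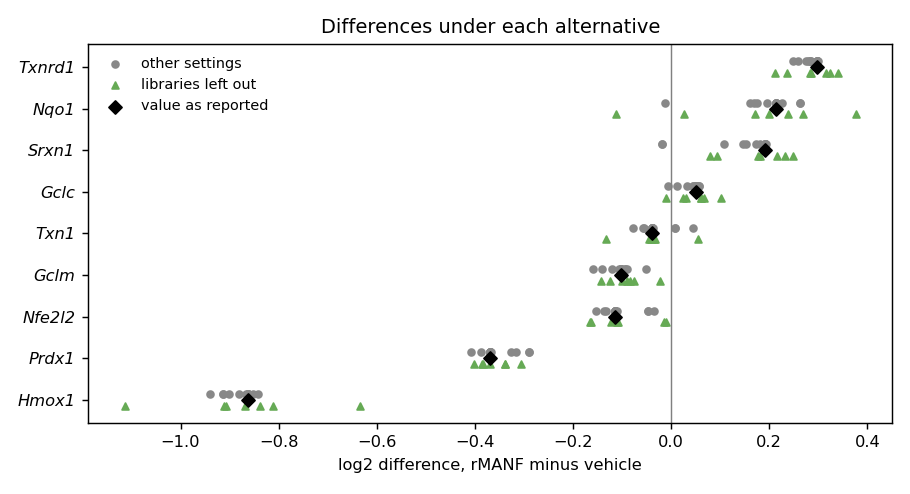
Log2 difference, rMANF minus vehicle, of each tested member as reported (diamonds), under other settings (circles) and with libraries left out (triangles). Hmox1, Prdx1, Gclm and Nfe2l2 stay below 0 and Txnrd1 above 0 in all 20 alternatives, whereas Txn1, Gclc, Srxn1 and Nqo1 have points on both sides.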

How the data were processed

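RNA from 6 libraries labelled heart was sequenced, 3 per group. Per the labels' protocols, total RNA went into Nextera XT libraries, a kit that does not mark strand. Tools named in the submitters' processing notes were cutadapt, fastp, HTSeq 0.11.0 and Salmon 0.14.1, with build mm10; their roles, the annotation and filters were not given in the sources used here. Values per gene were deposited by the authors as log2 TPM, where −9 was read as 0 TPM, with 0 columns of other samples. TPM keeps no read number, so depth and counting error are unknown, and precision is the spread between 3 libraries.

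Genes whose mean reached 1 TPM (12865 of 23494) were fitted on log2(TPM + 1), a scale that understates differences of low genes, with limma 3.58.1 in R 4.3.3 (no covariates, variance trend, two-sided, Benjamini-Hochberg, threshold 0.05). The fit was tested on simulated data. Single values and ratios had exact permutation tests over 20 assignments (SciPy 1.17.1). Transcript GC content and positions came from GENCODE M21 (GRCm38, named mm10), with GC for 12828 tested genes. Named genes were the 10 members, Keap1, Bach1, Manf, in each pathway list the 3 of smallest p and 2 of highest level, and the 2 highest markers of each marker list. Members and lists were chosen with earlier results of these data known; further genes, such as Prdx3 to Prdx6, Gpx3, Gpx7, Gpx8, Nppa and Myl2, were named after their values were seen. Alternatives were pseudocounts of 0.1 and 5, no filter or one at 5 TPM, 3 scalings, 3 variance models, a replicate block, GC trend removal (loess, span 0.5), each library left out, and, added after seeing the data, vehicle replicates 1 and 2 left out together.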

Additional observations from a re-analysis of the deposited data

How the results depend on the processing

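The count of members called was 0 except with library weights (2, Hmox1 at −0.94 with limma adjusted p = 0.0236 and Prdx1 at −0.33 with adjusted p = 0.0325) and at an adjusted p threshold of 0.10 (1, Prdx1). Over all genes limma called 0, against 737 with library weights, 351 at a threshold of 0.10, 3 with the replicate block, 1 with GC trends removed, 13 without vehicle replicates 1 and 2 together, and 0 to 4 with single libraries left out (4 without vehicle replicate 1). The cause of these changes was not tested. Members that lay lower without overlap numbered 2, beside 1160 of all tested genes. Under median-of-ratios scaling (1697 of all tested genes) and quantile normalization (1585) 4 members did. After GC trend removal (1364) 3 did, as when TPM was rescaled with haemoglobin and mitochondrial genes left out (1307). With single libraries left out 2 to 4 did, with 4 without vehicle replicate 3 (1760) or rMANF replicate 2 (1918). The count over all tested genes also rose in each setting named here, so such a rise is not particular to the members. Members that lay higher without overlap numbered 2, beside 2436 of all tested genes. Only 1 did under median-of-ratios scaling (2137 of all tested genes), quantile normalization (2264) or GC trend removal (2256). With single libraries left out 2 to 3 did, beside 2644 to 4128 of all tested genes. Signs turned for Gclc under quantile normalization (−0.0063) and without vehicle replicate 2 (−0.0100), for Txn1 under quantile normalization (0.045), GC trend removal with or without the block (0.0073) and without vehicle replicate 2 (0.054; −0.1337 to 0.054 over single libraries left out), for Srxn1 under GC trend removal with or without the block (−0.018), and for Nqo1, which gave −0.012 when libraries were weighted and −0.11 when vehicle replicates 1 and 2 were both left out, a setting chosen after seeing the data. Deviations of same-numbered libraries correlated at −0.0694, 0.0291 and 0.0495 across genes, and those of other pairs at −0.148 to 0.12. With 3 libraries per group these values cannot decide whether the numbers pair the libraries. With the replicate block, as without it, 0 members were called. Depth is unknown, so no counting error can be given for any member.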

Other observations

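The members varied less among the rMANF libraries than among the vehicle libraries. On log2(TPM + 1) the SD within the group was larger with vehicle for 9 of 9 tested members, against 70.2% of the 12865 tested genes. The median SD of the members was 0.168 with vehicle and 0.0455 with rMANF, and over all tested genes 0.175 and 0.111. By ratio of the SDs the contrast was widest in Txn1 (0.1879 and 0.0084) and Nfe2l2 (0.1727 and 0.015), and narrowest in Prdx1 (0.0629 and 0.0531). With 3 libraries a group this is a description and was not tested. Vehicle replicate 1 held the lowest value of the 6 libraries for Nqo1, Srxn1 and Txn1 and the highest for Nfe2l2.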
